A study of Mus musculus with 18 samples.

Results

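Sperm small RNA of 2 unexposed generations was compared: the F1 control males (F1 Con) and the F0 control males (F0 Con), 3 libraries each. These 6 libraries were chosen by their labels alone, out of 18 in the series. All animals were ICR mice, an outbred strain, and the sampled material was labelled as sperm, while the design text of the series speaks of semen. The study itself followed a line founded by F0 males given ammonia and hydrogen sulphide (F0 NHS, treated from 3 weeks of age for 5 weeks) into F1 and F2 males that received nothing, with a control group in each generation. The comparison of controls asks how far sperm small RNA differed between generations where no exposure was involved. The labels do not state whether the F1 Con males were sons of the F0 Con males, how old the males were at collection beyond a mating age of 8 weeks given for F1 males, how sperm were purified, whether animals were pooled or on which date a library was made. Generation therefore cannot be told apart from anything else that differed between the 2 collections. Nothing in the labels says that the 3 libraries of a group came from separate animals, so p-values here measure only how the libraries of a group vary, and part of that may be technical.

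Mature sperm are nearly silent in transcription and carry small RNAs made during spermatogenesis together with small RNAs taken up in the epididymis. A miRNA is cut from a hairpin precursor into mature strands (arms) that guide Argonaute proteins to messenger RNAs, chiefly through the seed, bases 2 to 8. piRNAs are longer, bind PIWI proteins and are made in large amounts in the germ cells of the testis. The miR-34b/c pair and an X-linked cluster of the miR-506 superfamily are abundant in meiotic and later male germ cells, whereas miR-143 and miR-145 are abundant in smooth muscle and stroma, and miR-451 in red blood cells.

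The miRNAs on which the results turn are shown by their mature sequences from RefSeq (GRCm38.p6), 5′ to 3′, with the seed in capitals. Of the 43 precursors called below, 39 had a mature sequence in that table. The first set belongs to precursors that were higher in F1 Con, or to their close relatives, and shows which of them share a seed.
miR-34b-5p: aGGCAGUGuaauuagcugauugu
miR-449a-5p: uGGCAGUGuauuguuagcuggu
miR-34b-3p: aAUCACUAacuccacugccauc
miR-34c-3p: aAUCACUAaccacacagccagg
miR-132-3p: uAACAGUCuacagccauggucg
miR-212-3p: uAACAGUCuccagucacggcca
miR-7a-5p: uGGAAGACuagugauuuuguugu
miR-871-5p: uAUUCAGAuuagugccagucaug
miR-465c-5p: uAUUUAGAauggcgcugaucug
The second set belongs to precursors that were lower in F1 Con, or to relatives with the same seed.
miR-322-5p: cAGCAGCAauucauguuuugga
miR-497a-5p: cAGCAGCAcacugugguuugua
miR-195a-5p: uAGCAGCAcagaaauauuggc
miR-16-5p: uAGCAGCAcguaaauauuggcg
miR-29a-3p: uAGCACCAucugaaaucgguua
miR-29c-3p: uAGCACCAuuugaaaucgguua
miR-99a-5p: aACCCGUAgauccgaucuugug
miR-100-5p: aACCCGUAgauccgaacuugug
miR-582-5p: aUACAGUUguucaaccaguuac
miR-137-3p: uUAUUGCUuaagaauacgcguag

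The 6 libraries held 18737016 to 25586234 reads each. Of the 18 libraries, 13 had complete lists and were fitted together, and the 5 others were not used. Among the 6 libraries compared, F0 Con 2 stood apart from the rest. The Rfam family RF00005 had 15292, 5185 and 20195 TPM (reads per 1000000 reads of the library) in F1 Con 1, 2 and 3, against 11546, 43.2 and 4718 TPM in F0 Con 1, 2 and 3. In F0 Con 2 predicted miRNAs took 7.30% of all reads, and this class took 0.423% to 0.891% in F1 Con and 0.380% and 0.383% in the other F0 Con libraries. Among them were novel_mir6624 at 35202 TPM and novel_mir4 at 29470 TPM in F0 Con 2, and novel_mir6624 was at 99.4 to 1567 TPM in the other 5 control libraries. Both were named after their values were seen, and their sequences are shown because they are closely alike.
novel_mir6624: gccucguggcgcaacggu
novel_mir4: accucguggcgcaacggu
RF00005 was also low in 4 of the 7 further complete libraries, with 282 to 498 CPM in F0 NHS 3, F2 Con 1, F2 Con 2 and F2 NHS 1. CPM are counts per 1000000 reads of the library, after each library total is scaled by a factor computed within the class, here Rfam. The F0 NHS and F2 Con means therefore mix both kinds of library. Of the 43 miRNA calls described below, 8 were also made without F0 Con 2, namely miR-582, miR-7a, miR-34c, miR-497a, miR-7241, miR-322, miR-137 and miR-376c. The others kept their direction with adjusted p-values of 0.0594 to 0.146 without that library.

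The makeup of the libraries differed between the generations. miRNAs took 13.3%, 17.3% and 32.6% of reads in F1 Con 1, 2 and 3, against 51.8%, 40.6% and 57.4% in F0 Con 1, 2 and 3. Every F1 Con library lay below every F0 Con library, with means of 21.1% ± 10.2 and 49.9% ± 8.56 (SD, n = 3 each), a difference of -28.9 percentage points. Known piRNAs went the other way, at 9.97%, 6.39% and 8.68% in F1 Con against 4.89%, 2.42% and 4.598% in F0 Con, again without overlap. Reads listed as intergenic averaged 7.42% ± 2.16 in F1 Con and 3.66% ± 0.955 in F0 Con, and intronic reads 10.6% ± 1.23 in F1 Con and 7.82% ± 0.380 in F0 Con (SD, n = 3 each). Both classes lay higher in every F1 Con library, but as a share of the reads outside miRNAs the intronic difference turned to -2.35 percentage points. On that same basis the F1 Con and F0 Con libraries overlapped for known piRNAs and for intergenic reads.

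The other classes overlapped. Repeat reads averaged 38.3% ± 12.2 in F1 Con and 21.4% ± 6.40 in F0 Con, Rfam reads 8.24% ± 2.88 in F1 Con and 4.56% ± 1.49 in F0 Con, and exonic reads 4.44% ± 0.289 in F1 Con and 4.89% ± 0.795 in F0 Con (SD, n = 3 each). Exact two-sided permutation tests over 3 against 3 libraries cannot give a p below 0.1, which the miRNA, known piRNA, intronic and intergenic shares reached (adjusted over 10 classes, 0.25). In bulk material, fewer cells of a type and less RNA per cell cannot be told apart, and a share falls when another class rises. For orientation, the mean miRNA share was 43.6% in F0 NHS and 27.4% in F2 Con.

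**Figure D1:**
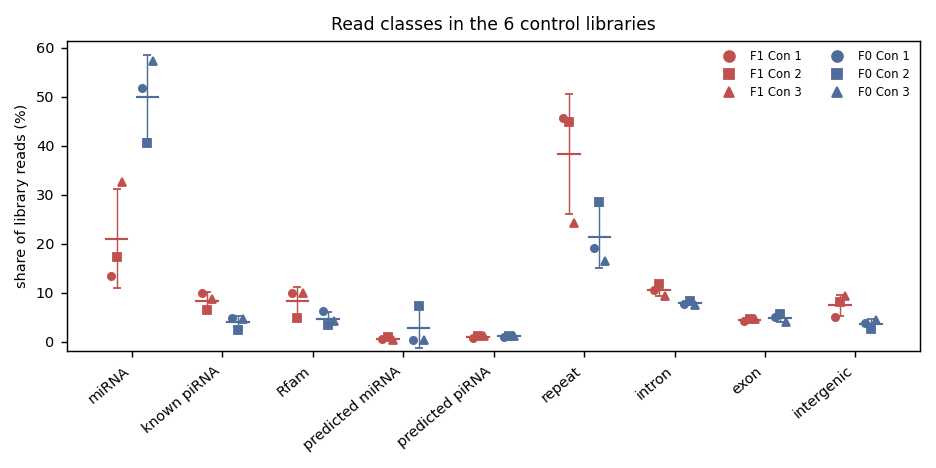
Share of library reads (%) in 9 read classes for the F1 Con (red) and F0 Con (blue) libraries; points are libraries, bars the mean and whiskers 1 SD (n = 3). The miRNA share is lower in every F1 Con library (13.3% to 32.6%) than in any F0 Con library (40.6% to 57.4%), and F0 Con 2 alone has a predicted miRNA share of 7.30%.

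At the level of single miRNAs, changes were found in both directions relative to the class as a whole. Arms and numbered copies of a precursor were summed. Levels are CPM, with each library total scaled by a factor computed within the miRNA class. A precursor was tested if it reached 1 TPM, without this scaling, in 3 or more of the 13 complete libraries, which 454 did. Of these, 43 (9.47%) were called at an adjusted p under 0.05 by edgeR's quasi-likelihood test with Benjamini-Hochberg adjustment, 25 higher (5.51%) and 18 lower (3.96%) in F1 Con. In 42 of the 43 the F1 Con and F0 Con libraries did not overlap, miR-150 being the exception, and over all 454 the groups did not overlap in 36.1% (17.6% higher and 18.5% lower). Because the miRNA class took a smaller share of the F1 Con libraries, scaling to library totals moved the median log2 fold change of all precursors to -0.87, from 0.06. On that scale 4 precursors were called higher (0.881%) and 106 lower (23.3%). Of the 25 precursors called higher within the class, 4 were called higher again there, and all 25 kept a positive fold change. All 18 called lower were called lower again. Because this scale moves the precursors down as a class, neither the kept sign nor the repeated lower calls are separate support. Directions below are relative to the miRNA class unless the other scale is named. DESeq2 called 121 (26.7%), among them all 43.

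Single libraries mattered for the count. Without F0 Con 1, 2 or 3 there were 25, 9 and 5 calls, and without F1 Con 1, 2 or 3 there were 7, 20 and 9. All 43 kept their direction in each of these 6 fits. miR-582, miR-34c and miR-497a were called in all 6, and 14 of the 43 in none. The highest adjusted p that leaving out a library gave any of the 43 was 0.169, for miR-150 without F1 Con 2.

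**Figure D2:**
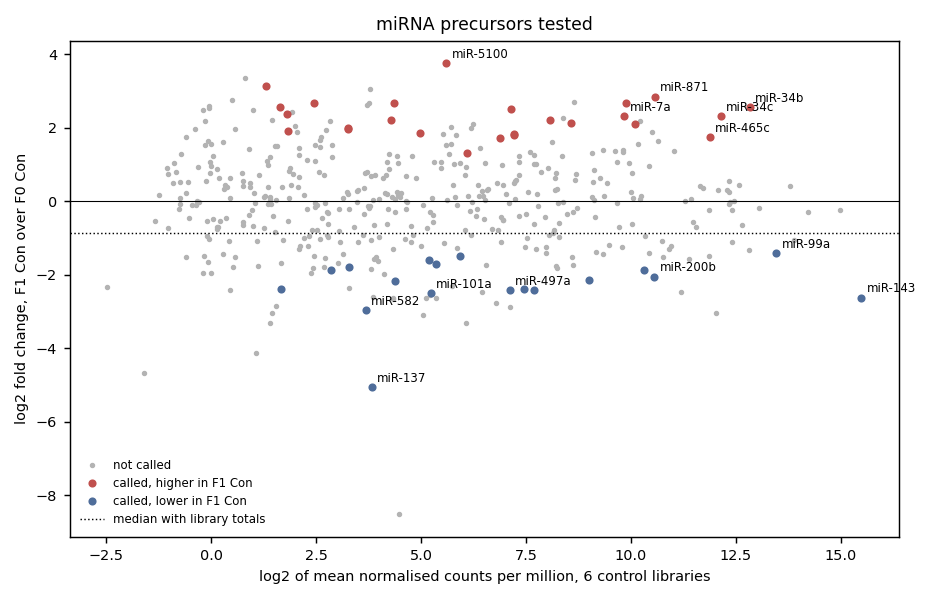
Log2 fold change (F1 Con over F0 Con) against log2 of the mean CPM over the 6 control libraries for 454 miRNA precursors. The 25 called higher are red and the 18 called lower blue; the dotted line at -0.87 is the median fold change when library totals replace the scaling within the class.

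Of the germ-cell miRNAs, both members of the miR-34b/c pair rose, and miR-34b was the only precursor among the 10 with the highest mean CPM that was called higher. miR-34b had 17117, 11322 and 8967 CPM in F1 Con 1, 2 and 3, against 2086, 1948 and 2332 CPM in F0 Con 1, 2 and 3. miR-34c had 6977, 8340 and 7167 CPM in F1 Con, against 1076, 1692 and 1780 CPM in F0 Con. The lowest F1 Con library thus exceeded the highest F0 Con library for both, with log2 fold changes of 2.55 (SE 0.51) for miR-34b and 2.31 (SE 0.43) for miR-34c, and an adjusted p of 0.0146 for each by edgeR's quasi-likelihood test. These hairpins, known to be cut from a shared transcript, lie on the minus strand of chromosome 9 (GRCm38), at chr9:51103562-51103645 and chr9:51103034-51103110, opposite an intron of Btg4. miR-34b lost its call without F0 Con 2, F0 Con 3 or F1 Con 1, with adjusted p-values up to 0.0594, while miR-34c stayed at or below 0.0494. On library totals the log2 fold changes were 1.53 for miR-34b and 1.38 for miR-34c, both with an adjusted p above the threshold (0.0503 and 0.0599). For the 2 other complete groups, mean levels of miR-34b were 5471 CPM in F0 NHS and 16172 CPM in F2 Con.

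In the 6 control libraries the 5p arm made up 0.427% to 3.48% of miR-34b reads and 0.139% to 2.88% of miR-34c reads. The summed levels of both thus rest almost wholly on the 3p arms, which carry the seed AUCACUA. miR-449a, which carries the seed GGCAGUG of miR-34b-5p, did not pass. It had 1401, 995 and 4910 CPM in F1 Con, against 1278, 520 and 563 CPM in F0 Con, so that F1 Con 2 lay below F0 Con 1 (log2 fold change 1.63, SE 0.58, adjusted p 0.0762). The remaining tested relative, miR-34a, overlapped between the groups (log2 fold change 0.06, SE 0.69, adjusted p 0.973). The list of this family therefore held 2 higher and 0 lower of 4 tested, where 5.51% of all precursors were called higher. Its median log2 fold change was 1.97 (1.16 on library totals). The list took 10.8%, 7.61% and 6.88% of miRNA reads in F1 Con against 1.57%, 1.28% and 1.61% in F0 Con.

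The X-linked cluster of the miR-506 superfamily, expressed chiefly in the testis, had 19 tested members, of which 2 were called higher (5.51% of all precursors were), 0 lower and 16 had positive fold changes. The median log2 fold change of 0.72 became -0.12 on library totals, where 1 member was called, higher. miR-871 had 1088, 3359 and 3527 CPM in F1 Con, against 677, 255 and 186 CPM in F0 Con (log2 fold change 2.83, SE 0.58, adjusted p 0.0151). miR-465c had 3821, 4668 and 8907 CPM in F1 Con, against 2969, 1192 and 1052 CPM in F0 Con (log2 fold change 1.74, SE 0.48, adjusted p 0.0459; 2.38 without F0 Con 1). F0 Con 1 was the highest F0 Con library for both, yet stayed below all F1 Con libraries. miR-871 lost its call without F0 Con 2 or F0 Con 3, with adjusted p-values up to 0.0721, and miR-465c lost it without any library but F0 Con 1, with adjusted p-values up to 0.123. miR-470 came close to the threshold at 1529, 2912 and 1371 CPM in F1 Con against 777, 133 and 377 CPM in F0 Con (adjusted p 0.0506). Between chrX:66776757 and chrX:66839125, 16 of 17 tested hairpins had positive fold changes, where 235 of all 454 did. The family's share of miRNA reads was 4.18% to 5.58% in F1 Con and 0.652% to 2.14% in F0 Con.

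**Figure D3:**
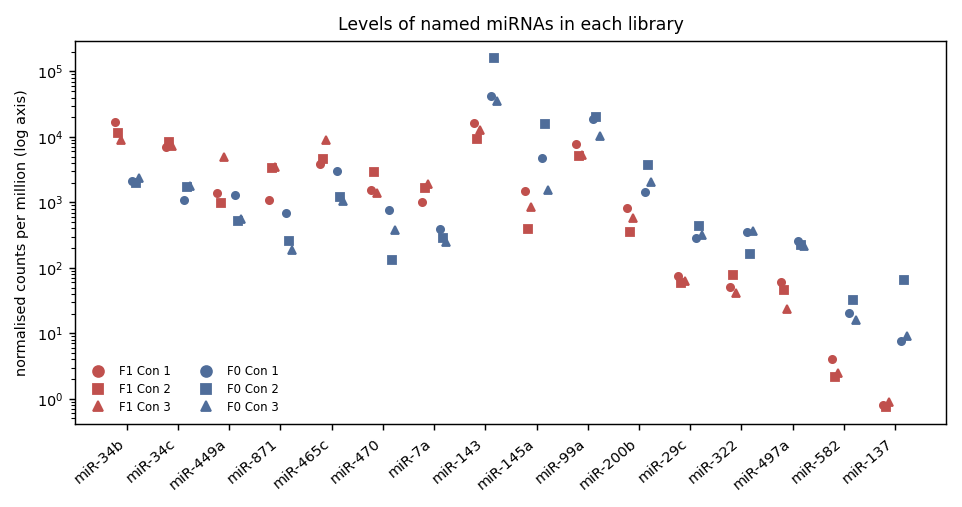
CPM (log axis) of 16 named miRNAs in each F1 Con (red) and F0 Con (blue) library; points are libraries. miR-34c lies at 6977 to 8340 CPM in F1 Con and at 1076 to 1780 CPM in F0 Con, and miR-449a and miR-143 show libraries that stand apart within a group.

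Several further calls sat next to each other in the genome. miR-132 and miR-212, cut from 1 intron of a processed transcript on chromosome 11 and sharing the seed AACAGUC, were both higher. miR-212 had 20.0, 34.4 and 51.8 CPM in F1 Con, against 5.49, 8.07 and 3.23 CPM in F0 Con (log2 fold change 2.66, SE 0.65, adjusted p 0.0281). miR-132 had 145.3, 155 and 239 CPM in F1 Con, against 69.8, 47.7 and 46.9 CPM in F0 Con (log2 fold change 1.71, SE 0.40, adjusted p 0.0238). Both are known as miRNAs induced by neuronal activity and CREB, and the F1 Con libraries lay above the F0 Con libraries for both. miR-212 was called in 0 of the 6 fits that leave out a library (adjusted p 0.0516 to 0.0793) and miR-132 in 2 of 6 (up to 0.0875), and neither was called on library totals (adjusted p 0.0503 for miR-212 and 0.235 for miR-132). On chromosome 17, miR-7214, miR-7217 and miR-7218, all within the lincRNA genes Gm49793 and Gm49794 between chr17:27317035 and chr17:27358155, were higher as well (log2 fold changes 2.20, 1.99 and 2.57; adjusted p 0.0494, 0.0459 and 0.0238), at low levels of 2.13 to 51.6 CPM in F1 Con and 0.783 to 10.1 CPM in F0 Con. Each of these 3 was called in 1 of the 6 fits that leave out a library, and none on library totals. miR-132, miR-212, miR-7214 and miR-7217, like the relatives miR-34a and miR-7b and the calls miR-152, miR-204, miR-450a, miR-92a and miR-466p of the lists, were chosen for naming after their values were seen.

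miR-7a, encoded at 2 loci of which 1 lies in an intron of Hnrnpk on chromosome 13, had 998, 1664 and 1936 CPM in F1 Con, against 393, 285 and 250 CPM in F0 Con (log2 fold change 2.31, SE 0.42, adjusted p 0.0146). Every F1 Con library was above every F0 Con library, and the call was lost without F0 Con 3 (adjusted p 0.0573). Its paralogue miR-7b, with the same seed GGAAGAC, overlapped between the groups (log2 fold change 0.81, SE 0.98, adjusted p 0.632). miR-5100, in an intron of Mief2, showed the largest rise of the 25 at 108, 87.3 and 74.7 CPM in F1 Con against 6.49, 6.21 and 7.38 CPM in F0 Con (log2 fold change 3.75, SE 0.99, adjusted p 0.0384). It was chosen after its values were seen, and its call was lost without any 1 of the 6 libraries (adjusted p 0.0655 to 0.0929). miR-5099 had 503, 385 and 965 CPM in F1 Con, against 167, 181 and 73.8 CPM in F0 Con (adjusted p 0.0238). miR-7241 and miR-7223 rose at low levels, at 4.61 to 12.2 CPM in F1 Con and 0.728 to 2.20 CPM in F0 Con (adjusted p 0.0146 and 0.0238). miR-5099 and miR-7223 lost their calls without F0 Con 2, F0 Con 3, F1 Con 1 or F1 Con 3, with adjusted p-values up to 0.0738 for miR-5099 and 0.0855 for miR-7223, and miR-7241 without F0 Con 3 (0.0573). On library totals miR-7a, miR-5099 and miR-7223 were not called (adjusted p 0.072, 0.0933 and 0.0637). miR-5100 and miR-7241 were called higher on that scale (adjusted p 0.0408 and 0.0453).

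The leukocyte list held 1 call of 7 tested, where 9.47% of all precursors were called. The call was miR-150, a miRNA of mature lymphocytes. It had 913, 3690 and 295 CPM in F1 Con, against 210, 303 and 256 CPM in F0 Con. F1 Con 3 lay within the F0 Con range, and without F1 Con 2 the log2 fold change went to 1.24 with an adjusted p of 0.169, from 2.67 and 0.0459.

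Among the miRNAs that were lower in F1 Con, miR-143 had the highest mean CPM of the 6 libraries, a rank that rests on F0 Con 2, since miR-451a was above it in the 5 others. It had 16376, 9208 and 12746 CPM in F1 Con, against 42367, 159667 and 35634 CPM in F0 Con (log2 fold change -2.63, SE 0.61, adjusted p 0.0238). F0 Con 2 alone carried more than the 5 others together, and without it the log2 fold change was -1.61 (adjusted p 0.0857), with the groups still apart. The call was also lost without any 1 of the F1 Con libraries. Its cluster partner miR-145a had 1485, 394 and 838 CPM in F1 Con, against 4842, 15927 and 1532 CPM in F0 Con, which did not pass (log2 fold change -3.04, SE 0.91, adjusted p 0.0506). In the list of smooth muscle and stromal miRNAs 2 of 7 were called, both lower (miR-143 and miR-152), where 3.96% of all precursors were, and the median log2 fold change was -2.49. On library totals 5 of 7 were called lower, with a median of -3.22, where 23.3% of all precursors were. miR-152 was called in 0 of the 6 fits that leave out a library (adjusted p 0.0615 to 0.102). miR-199a, also of stroma, had a log2 fold change of 0.40 (SE 0.84, adjusted p 0.796). The list took 8.62%, 5.44% and 5.55% of miRNA reads in F1 Con, against 15.3%, 42.7% and 12.98% in F0 Con.

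The levels of miRNAs of other non-germ cells are given beside these results, and their part in them was not tested. Muscle miRNAs took 0.0824% to 0.115% of miRNA reads in F1 Con and 0.137% to 0.369% in F0 Con. Of these, 0 of 6 were called, where 9.47% of all precursors were, and 5 of 6 were negative. On library totals 4 of 6 were called lower (median -3.42), where 23.3% of all precursors were (median -0.87). miR-133a, for example, had 139, 96.1 and 160 CPM in F1 Con, against 464.6, 867 and 78.0 CPM in F0 Con, with F0 Con 3 below all F1 Con libraries. The red blood cell list had 0 of 4 called and overlapping shares of 9.60% to 12.9% in F1 Con and 2.55% to 13.6% in F0 Con. Its defining member miR-451a had 30901, 23837 and 34929 CPM in F1 Con, against 50052, 10354 and 45516 CPM in F0 Con, and F0 Con 2 was the lowest of the 6. Epithelial miRNAs, which an epididymal source could also give, had 1 of 10 called (miR-200b, lower), which is near the 9.47% of all precursors called. On library totals 6 of 10 were called lower, where 23.3% of all precursors were. Epithelial shares of miRNA reads were 3.39% to 6.58% in F1 Con and 4.70% to 6.07% in F0 Con. Endothelial, liver and neuronal lists held 0 of 2, 0 of 3 and 1 of 5 calls, the last being miR-137, and miR-885 of the liver list was listed at 0.

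miR-200b itself had 818, 352 and 583 CPM in F1 Con, against 1441, 3754 and 2079 CPM in F0 Con (log2 fold change -2.05, SE 0.50, adjusted p 0.0281). Only without F0 Con 1 did its call hold when a library was left out, and the adjusted p reached 0.0917 without the others. miR-200a and miR-429, in the same cluster on chromosome 4, had log2 fold changes of 0.06 and 0.31 (adjusted p 0.971 and 0.773), which turned negative on library totals, and miR-200c, from another locus, had 3488, 3145 and 3691 CPM in F1 Con against 7393, 5750 and 9093 CPM in F0 Con (adjusted p 0.0511).

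The smallest p-values on the lower side included those of miR-582 and 2 members of the miR-15/16 seed family. miR-582 had 4.11, 2.13 and 2.50 CPM in F1 Con, against 20.1, 32.4 and 15.9 CPM in F0 Con (log2 fold change -2.97, SE 0.48, adjusted p 0.0146). miR-497a, which restrains the cell cycle together with its neighbour miR-195a, had 60.2, 46.3 and 23.8 CPM in F1 Con, against 259, 226 and 214 CPM in F0 Con (log2 fold change -2.42, SE 0.46, adjusted p 0.0146). miR-322 had 50.3, 78.4 and 41.1 CPM in F1 Con, against 358, 162 and 363 CPM in F0 Con (log2 fold change -2.38, SE 0.47, adjusted p 0.0146). No F1 Con library reached an F0 Con library for any of these 3. The calls of miR-582 and miR-497a held without any 1 library, and that of miR-322 was lost without F0 Con 3, F1 Con 1 or F1 Con 3 (adjusted p up to 0.0626).

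As the sequences above show, miR-497a-5p and miR-322-5p share AGCAGCA with miR-195a-5p, miR-16-5p and others. All 6 tested precursors with this seed had negative fold changes, where 219 of all 454 did, but 4 were not called. miR-16, the most abundant of them, had 3008, 9010 and 4834 CPM in F1 Con, against 6689, 4041 and 6209 CPM in F0 Con, and the F0 Con values lay within the F1 Con range (log2 fold change -0.01, SE 0.42). miR-195a had 66.5, 199 and 108 CPM in F1 Con, against 232, 304 and 384 CPM in F0 Con (adjusted p 0.103). miR-15b also overlapped, at 486 to 1305 CPM in F1 Con and 976 to 1428 CPM in F0 Con. The median of the list was -0.96 (-1.94 on library totals). On the X chromosome, miR-322 lies with miR-450a, miR-450b, miR-503 and miR-542 between chrX:53047997 and chrX:53054349, where all 5 tested hairpins had negative fold changes and miR-322 and miR-450a were called. The call of miR-450a was made in 0 of the 6 fits that leave out a library (adjusted p 0.0753 to 0.102). Beside the calls of this seed and of this cluster, 3.96% of all precursors were called lower. 

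The miR-29 family, which targets collagens and DNA methyltransferases, had 1 of 3 members called, lower, and negative fold changes in all 3. Over all precursors 3.96% were called lower. miR-29c had 74.6, 58.8 and 62.1 CPM in F1 Con, against 289, 441 and 313 CPM in F0 Con (log2 fold change -2.42, SE 0.60, adjusted p 0.0294). miR-29c was called in 1 of the 6 fits that leave out a library, with adjusted p-values up to 0.0859. miR-29a, at 1456, 1037 and 1522 CPM in F1 Con against 5489, 3969 and 2454 CPM in F0 Con, and miR-29b, at 95, 91.0 and 129 CPM in F1 Con against 229, 268 and 259 CPM in F0 Con, missed the threshold (adjusted p 0.0609 and 0.0506). None of the 3 had overlapping groups, and the family's share of miRNA reads was 0.424% to 0.661% in F1 Con and 0.889% to 1.59% in F0 Con.

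Of the miR-99, miR-100 and miR-125 families, 1 of 5 was called, lower, where 3.96% of all precursors were. miR-99a had 7864, 5178 and 5305 CPM in F1 Con, against 18904, 20113 and 10275 CPM in F0 Con (log2 fold change -1.43, SE 0.41, adjusted p 0.0494). It was called in 0 of the 6 fits that leave out a library (adjusted p 0.0573 to 0.121). The miR-99a call was also lost with the 6 control libraries alone and without a filter on low counts. miR-100, which shares its seed, had 581, 528 and 462 CPM in F1 Con, against 1721, 1302 and 712 CPM in F0 Con (adjusted p 0.0762), and miR-125b had 1048, 695 and 1578 CPM in F1 Con, against 1910, 4521 and 1774 CPM in F0 Con (adjusted p 0.0707). The list median was -1.25 (-1.98 on library totals).

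miR-137, a neuronal miRNA, had the largest fall of the 18. It was at 0.793, 0.757 and 0.887 CPM in F1 Con, against 7.68, 65.5 and 9.24 CPM in F0 Con (log2 fold change -5.07, SE 1.01, adjusted p 0.0146). F0 Con 2 was the highest, and without it the log2 fold change was -3.37 (adjusted p 0.0467), while without F1 Con 1 or F1 Con 3 the adjusted p rose to as much as 0.0565. miR-101a had 10.7, 9.78 and 13.4 CPM in F1 Con, against 36.9, 89.8 and 65.4 CPM in F0 Con (log2 fold change -2.50, SE 0.57, adjusted p 0.0238). Its call held without F0 Con 1 and was lost without any other library (adjusted p up to 0.0806).

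The imprinted Dlk1-Dio3 cluster on chromosome 12, whose miRNAs are expressed from the maternal chromosome, held 2 calls of 44 tested, both lower, where 3.96% of all precursors were called lower. miR-376c had 8.51, 5.37 and 8.83 CPM in F1 Con, against 23.9, 32.2 and 46.8 CPM in F0 Con (log2 fold change -2.18, SE 0.45, adjusted p 0.0166). miR-299a had 4.40, 2.55 and 2.34 CPM in F1 Con, against 9.60, 13.6 and 11.1 CPM in F0 Con (log2 fold change -1.89, SE 0.43, adjusted p 0.0238). Each was called in 2 of the 6 fits that leave out a library, with adjusted p-values up to 0.0626 for miR-376c and 0.081 for miR-299a. On library totals 23 of the 44 were called lower, with a median of -1.77, where 23.3% of all precursors were called lower and their median was -0.87. The median of the 44 was -0.79, 35 of them being negative, yet the summed share of miRNA reads was higher, at 1.01% to 1.201% in F1 Con and 0.632% to 0.812% in F0 Con. The difference in sign goes with miR-127, the most abundant member, which had 1431, 910 and 2825 CPM in F1 Con against 618, 792 and 366 CPM in F0 Con (adjusted p 0.0581). miR-411 and miR-379, next in abundance, overlapped between the groups, with log2 fold changes of -0.70 and -0.31.

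The calls of the remaining lists are set beside the 9.47% of all precursors that were called. The Sfmbt2 intronic cluster had 1 higher of 30 (miR-466p), with a median of 0.53 that became -0.40 on library totals. The miR-17-92 group had 1 higher of 11 (miR-92a), and the let-7 family 1 lower of 10 (let-7e). miR-466p and miR-92a were called in 0 of the 6 fits that leave out a library (adjusted p up to 0.107 and 0.13). let-7e was called in 1 of these 6 (adjusted p up to 0.0806). The miR-30 family, the Hox cluster miRNAs, and the miR-290-295 and miR-302 clusters had 0 of 6, 0 of 5 and 0 of 4. A list of miRNAs reported in sperm after paternal stress held 3 higher (miR-34c, miR-204 and miR-212) and 2 lower (miR-200b and miR-29c) of 13, in mice that were not exposed to anything according to the labels. A list of miRNAs abundant in sperm held 2 higher (miR-34b and miR-34c) and 2 lower (miR-99a and miR-200b) of 16. Both of these lists had a larger share called than all precursors did, but they were chosen with earlier results of these data known. They have miR-34c and miR-200b in common, and neither list was tested as a set. Among their calls, miR-204, miR-200b and miR-29c were each made in 1 of the 6 fits that leave out a library, and miR-212 and miR-99a in 0. Of the 43 called precursors, 23 were in none of the 22 lists.

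Of the 10 precursors with the highest mean CPM, 7 were not called. let-7c had 11055, 11724 and 28849 CPM in F1 Con, against 25484, 9586 and 28867 CPM in F0 Con (adjusted p 0.721), and miR-191 had 16249, 16616 and 15864 CPM in F1 Con, against 13612, 9684 and 13562 CPM in F0 Con (log2 fold change 0.40, and -0.56 on library totals, adjusted p 0.433 within the class). let-7a and let-7g overlapped between the groups. miR-26a, at 8463, 8339 and 12437 CPM in F1 Con against 23176, 15129 and 22714 CPM in F0 Con, and miR-21a, at 3891, 4631 and 3778 CPM in F1 Con against 10302, 5371 and 15557 CPM in F0 Con, lay lower in every F1 Con library without passing the test (adjusted p 0.0745 and 0.0703).

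**Figure D4:**
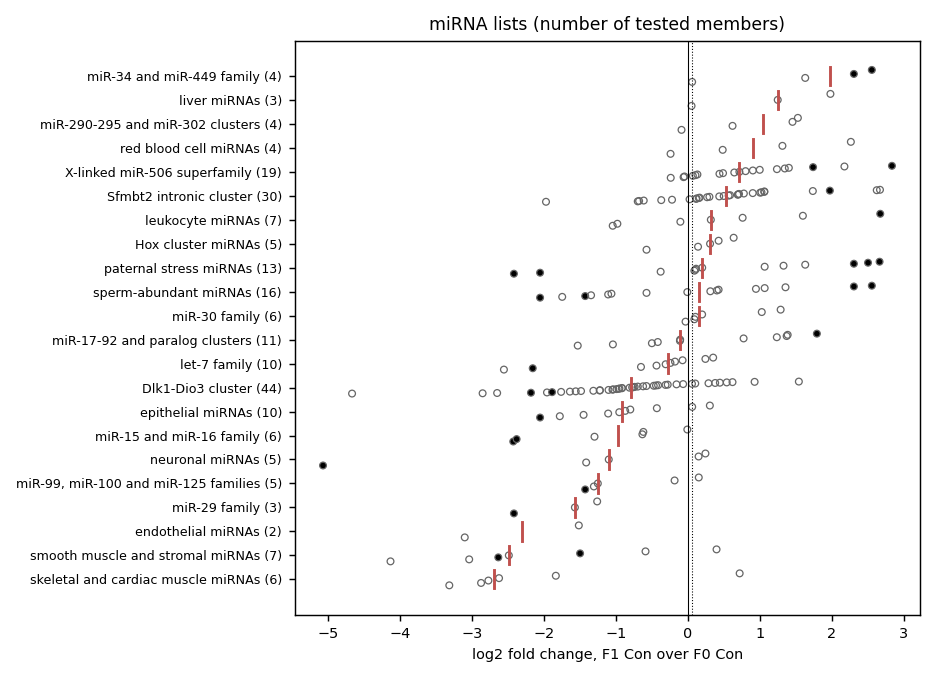
Log2 fold change (F1 Con over F0 Con) of each tested member of the 22 miRNA lists, with called members filled, the list median as a red bar and the median of all 454 precursors (0.06) as a dotted line. The miR-34 and miR-449 family has the highest median (1.97) and the muscle list the lowest (-2.70), and called members occur on both sides.

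Which arm of a hairpin was listed varied strongly between libraries. Of the 100 most abundant precursors with both arms listed, 51 had a 5p share that ranged over more than 50 percentage points among the 6 libraries. For miR-26a the 5p arm made up 1.73% to 87.9% of the reads in F1 Con and 15.5% to 81.8% in F0 Con. When arms were tested apart, 0 of 719 were called by edgeR's quasi-likelihood test, so all statements here are about precursors.

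Predicted miRNAs are hairpins that the authors' pipeline proposed from the reads. Of 240 tested, 6 (2.5%) were called, all lower in F1 Con, with 17 called by DESeq2 (7.08%) and 3 lower on library totals (1.25%), while 34 of 240 (14.2%) were lower without overlap and 27 (11.2%) higher without overlap. Of the 6, novel_mir4375 and novel_mir5550 passed the filter on low counts only through the F0 Con libraries, so lower was the only direction open to them. The mature sequences of the 6 are as deposited.
novel_mir4212: gggcgggcggggccgggggu
novel_mir4375: ggcggcgcggggcggggg
novel_mir5550: acggucugggaaaaggcuccu
novel_mir16: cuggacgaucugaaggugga
novel_mir6: aggaggugucagaaaaguu
novel_mir2631: agcuuugcgcaguggcagu
All 6 overlapped annotated genes in GENCODE M21 (GRCm38). novel_mir4212 (chr7:109865617-109865693, minus strand) lay in a UTR of Scube2 on the same strand, novel_mir4375 (chr7:4740244-4740299, minus strand) opposite a UTR of Kmt5c, and novel_mir6 (chr13:44749631-44749711, minus strand) opposite an intron of Jarid2. The others fell in genes for abundant cellular RNAs on the same strand: novel_mir5550 (chr11:117077243-117077326) in the scaRNA Gm26083, a guide for modifying spliceosomal RNA, within Snhg20, novel_mir16 (chr2:39004766-39004811) in the coding sequence of Rpl35, a protein of the large ribosomal subunit, and novel_mir2631 (chr6:48289228-48289302) in the snRNA gene Gm22122.

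novel_mir4212 had 0.430, 1.78 and 0.275 TPM in F1 Con 1, 2 and 3, against 35.1, 34.3 and 110.0 TPM in F0 Con 1, 2 and 3 (log2 fold change -6.99, SE 0.86, adjusted p 0.000207 by edgeR's quasi-likelihood test). It alone of the 6 was called in every alternative fit. novel_mir4375 had 0 reads in all 3 F1 Con libraries, against 3.57, 1.18 and 13.1 TPM in F0 Con, which makes it at least 49.3-fold lower in F1 Con when 3 counts per library are taken as the floor. F0 Con 3 carried most of these reads, and without it the limit was 19.7-fold. novel_mir5550 had 0.313, 0.595 and 0.0392 TPM in F1 Con, against 23.8, 1.89 and 33.8 TPM in F0 Con (adjusted p 0.012). novel_mir6 had 17.0, 28.4 and 27.2 TPM in F1 Con, against 117, 724 and 113 TPM in F0 Con (adjusted p 0.0204), and novel_mir2631 had 10.7, 20.6 and 28.0 TPM in F1 Con, against 67.4, 69.4 and 220 TPM in F0 Con (adjusted p 0.0432). In each case all F1 Con libraries were below all F0 Con libraries. Mean levels in the F0 NHS and F2 Con libraries, in scaled CPM and so not directly comparable with the TPM above, were at or below 51.2 CPM. This single ceiling says little about the entries with few reads. novel_mir6 and novel_mir2631 were named after their values were seen. Leaving out F0 Con 1, 2 or 3 left 4, 1 and 3 calls, and leaving out F1 Con 1, 2 or 3 left 2, 1 and 2, with novel_mir4212 alone called without F0 Con 2 (adjusted p 0.124 for novel_mir16, 0.173 for novel_mir6 and 0.172 for novel_mir2631). novel_mir4375 and novel_mir5550 fell under the limit on low counts when any F0 Con library was left out. Both were thus tested only because F0 Con was high, so their direction, their lack of overlap and the fold limit of novel_mir4375 only describe the reads.

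Among the 231 Rfam families tested, 0 were called by edgeR's quasi-likelihood test (0%). There were 55 with an unadjusted p below 0.05, the smallest adjusted value was 0.0641, and DESeq2 called 30, or 13% of them all. The family IDs are given as listed, since the files do not name them. RF00019 had 5103, 649 and 5235 TPM in F1 Con, against 163, 100.9 and 155 TPM in F0 Con (log2 fold change 4.53, SE 1.17, adjusted p 0.0641). RF00023 had 22481, 15547 and 4480 TPM in F1 Con, against 1488, 1487 and 3704 TPM in F0 Con (adjusted p 0.111). RF01960 was lower in all F1 Con libraries, at 1315, 1732 and 815 TPM, against 5983, 5700 and 3853 TPM in F0 Con (log2 fold change -2.33, SE 0.68, adjusted p 0.0863). RF00563, RF00375 and RF02553 had log2 fold changes of 3.48, 3.35 and 3.65 at low levels, each without overlap and with an adjusted p of 0.0641. RF00002, the most abundant family, had 45916, 15993 and 59064 TPM in F1 Con, against 34904, 21354 and 20775 TPM in F0 Con, with overlap (adjusted p 0.8). Groups did not overlap in 34 families (14.7%) on the higher side and 40 (17.3%) on the lower side.

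**Figure D5:**
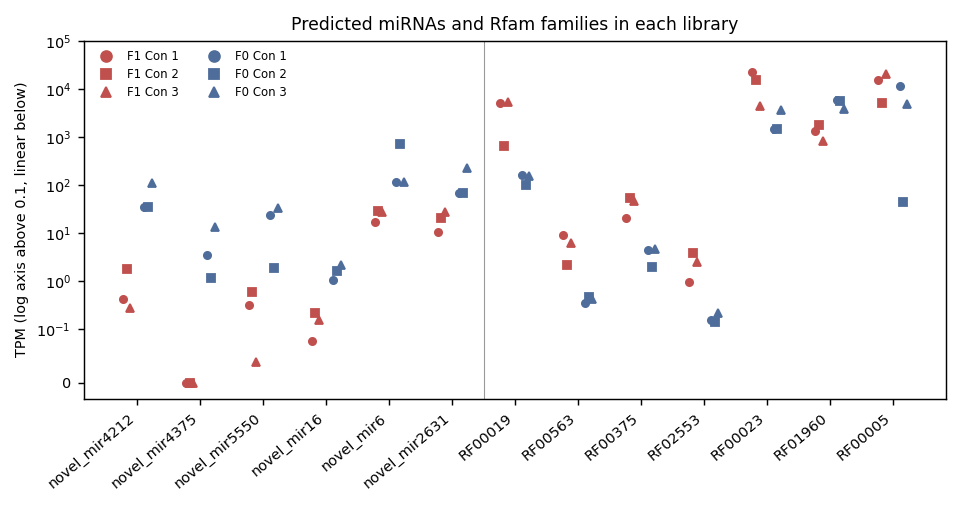
TPM (log axis above 0.1, linear below) of the 6 called predicted miRNAs, left of the line, and of 7 Rfam families, right of it, in each F1 Con (red) and F0 Con (blue) library; points are libraries. The predicted miRNAs lie lower in every F1 Con library, RF00019 lies at 649 to 5235 TPM in F1 Con and 100.9 to 163 TPM in F0 Con, and RF00005 is at 43.2 TPM in F0 Con 2.

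Known piRNAs, although their summed share of all reads was higher in F1 Con, gave 0 calls among 6463 tested (0%) by edgeR's quasi-likelihood test. A count of 0 does not show that no piRNA differed: at an unadjusted p under 0.05 there were 872, and DESeq2 called 149 (2.31%). The groups did not overlap in 19.9% of them, 10.2% higher and 9.65% lower, and on library totals 1 (0.0155%) was called, higher. The abundant mmu_piR_002643 had 6451, 4431 and 2990 TPM in F1 Con, against 276, 121 and 299 TPM in F0 Con (log2 fold change 3.37, SE 0.97, adjusted p 0.212). mmu_piR_022097 had 22352, 11839 and 9381 TPM in F1 Con, against 4257, 2183 and 3420 TPM in F0 Con, higher in all F1 Con libraries before scaling within the class (adjusted p 0.685). mmu_piR_000691 spread from 6634 to 26063 TPM in F1 Con and from 1176 to 6610 TPM in F0 Con. mmu_piR_000935 and mmu_piR_000585 overlapped between the groups. The smallest p-values belonged to mmu_piR_000619, with 6.02, 16.8 and 9.97 TPM in F1 Con against 125, 174 and 59.0 TPM in F0 Con, and mmu_piR_013359, with 32.9, 27.1 and 44.5 TPM in F1 Con against 3.25, 0.567 and 3.10 TPM in F0 Con (adjusted p 0.136 for both). Scaled to library totals, the median log2 fold change of the class was 1.13, against 0.08 within the class.

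Predicted piRNAs took overlapping shares of the libraries, 1.02% ± 0.185 in F1 Con and 1.08% ± 0.127 in F0 Con (SD, n = 3 each), but differed in length. Sequences of 26 to 32 bases, the length of piRNAs bound by PIWI proteins, made up 27.2%, 24.5% and 14.5% of predicted piRNA reads in F1 Con, against 5.43%, 2.47% and 7.63% in F0 Con. Those of this length that also began with T, the first base typical of primary piRNAs, made up 17.7%, 5.94% and 9.58% in F1 Con and 2.88%, 0.514% and 4.85% in F0 Con. The F1 Con libraries lay above the F0 Con libraries in both. Reads assigned to LINE/L1 repeats were lower, at 20.8%, 21.1% and 21.8% in F1 Con against 37.2%, 23.9% and 35.5% in F0 Con, and the ERVK, ERV1, ERVL and MaLR shares overlapped. These shares were chosen after the values were seen.

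None of the 947 predicted piRNAs tested was called by edgeR's quasi-likelihood test (0%, 95 at an unadjusted p under 0.05), which does not show that none differed, and DESeq2 called 49 (5.17%). The 3 with the smallest p came from a single LINE/L1 copy, chrX:21679357-21680794 on the minus strand, and share a core of 18 bases, in capitals.
novel_pir790246: ACCAAGCGTTGGATTGTT
novel_pir790242: ACCAAGCGTTGGATTGTTc
novel_pir790232: cACCAAGCGTTGGATTGTTc
novel_pir790232 had 0.195, 0.807 and 0.0785 TPM in F1 Con, against 26.9, 136 and 13.1 TPM in F0 Con (adjusted p 0.138). novel_pir790246 had 0.430, 1.02 and 0.589 TPM in F1 Con, against 23.2, 26.2 and 9.66 TPM in F0 Con (adjusted p 0.138). Since these entries overlap in sequence they are not separate observations. Of the 42 tested entries of this copy, 12 held the core and 25 had negative fold changes, while 485 of all 947 had positive ones. novel_pir780337, from a repeat on chromosome 9, had 0 reads in F1 Con, against 2.04, 1.13 and 8.27 TPM in F0 Con (at least 31.6-fold lower with the same floor, and 13.1-fold without F0 Con 3). For novel_pir780337 and novel_pir790232, every F0 Con library reached the 1 TPM of the filter on low counts and no F1 Con library did. Their direction and the fold limit therefore only describe the reads. Of 59 predicted siRNAs, 0 were called (11 at an unadjusted p under 0.05, and 4 by DESeq2, or 6.78%). The smallest p was that of novel_sir10851, at 0.352, 0.127 and 0.118 TPM in F1 Con against 0.980, 22.2 and 1.01 TPM in F0 Con.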

How the data were processed

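Small RNA of mouse sperm was sequenced. The authors deposited 1 list per library with a read count per entry and a TPM value, which the values show to be the count over the library total times 1000000 with no length term (within 0.01 TPM in the 13 complete libraries). The submitters' processing notes name mm10, which is GRCm38; the aligner, counting and prediction tools are not named in the sources used here. Positions, sequences and repeat classes of predicted RNAs come from the authors' deposited tables.

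Counts of a class were fitted with edgeR 4.0.16 (quasi-likelihood F test, group means over 13 libraries, TMM within the class on whole-library totals, at least 1 TPM in at least 3 of the 13 libraries, two-sided, Benjamini-Hochberg within the class, threshold 0.05). SE is the log2 fold change over the square root of F. DESeq2 1.42.0 was an alternative, and the others were RLE factors, library totals, no filter, the 6 control libraries only, a replicate block and leaving out each library. The fits were tested on simulated data. Class shares had exact permutation tests, and lists have no test. Genes were named by a rule: the 10 most abundant precursors, up to 3 per list and up to 8 calls per direction, up to 4 or 6 in other classes, and otherwise the smallest p. Members and lists were chosen with earlier results of these data known. Depth was 18737016 to 25586234 reads per library. Floors of 3 counts cover counting error only.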

Additional observations from a re-analysis of the deposited data

How the results depend on the processing

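The deviations of same-numbered libraries of the 2 generations had r = -0.02, -0.07 and -0.15 over miRNA precursors. Over known piRNAs r was -0.14, 0.05 and -0.19, and over Rfam families -0.11, -0.08 and -0.28. With 3 libraries a group these values cannot decide whether the numbers pair the libraries, and the main fit used no pairs. With the replicate number as a block in the fit (replicate block) 12 miRNA precursors were called in place of 43, 5 predicted miRNAs in place of 6, 0 in every other class, and RF00002 had a log2 fold change of -0.0154. Counts of calls moved as follows. DESeq2 called 121 miRNA precursors, 149 known piRNAs, 30 Rfam families, 17 predicted miRNAs, 49 predicted piRNAs and 4 predicted siRNAs. Library totals gave 110 miRNA precursors, 1 known piRNA and 3 predicted miRNAs. Without a filter on low counts 111 known piRNAs, 15 Rfam families, 16 predicted miRNAs and 23 predicted piRNAs were called. The 6 control libraries alone gave 6 Rfam families, 15 predicted miRNAs, 9 predicted piRNAs and 2 predicted siRNAs. Of the 43 called miRNA precursors, 32 were also called with the 6 control libraries alone and 29 without a filter on low counts. Arms not summed gave 0. Leaving out 1 library gave 5 to 25 miRNA precursors, 0 to 1 known piRNAs (1 without F1 Con 1) and 1 to 4 predicted miRNAs. As shares of the reads outside miRNAs, the differences were -4.07 points for exons, -2.35 for introns, 2.37 for known piRNAs, -0.87 for predicted piRNAs and -0.0152 for predicted siRNAs. List medians on library totals were -0.55 (miR-30), -2.41 (miR-29), -1.76 (epithelial), -0.27 (red blood cell), 0.25 (liver), -0.57 (Hox), -0.12 (X-linked) and 0.0753 (miR-290-295 and miR-302). Among named RNAs, library totals turned miR-191 to -0.56, miR-199a to -0.68, mmu_piR_000935 to 0.0512 and mmu_piR_000585 to 0.34, and the 6 control libraries turned miR-16 to 0.0307. Leaving out 1 library gave ranges of -0.68 to 0.10 for miR-451a, -0.62 to 0.17 for let-7a, -0.11 to 0.88 for miR-199a and -0.53 to 0.29 for miR-16. The cause of these changes was not tested. With 3 libraries a group and exact tests limited to 0.1, class shares cannot pass a threshold of 0.05. RLE factors called 56 miRNA precursors, all 43 among them. The limits for entries with 0 reads in F1 Con were also computed without each F0 Con library, an alternative chosen after seeing the data.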
